A study of Rattus norvegicus with 12 samples.

Results

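The miR-130 and miR-301 family was examined in rat liver, with its members taken by gene name from the deposited table. These were 4 of 444 features, Mir130a, Mir130b, Mir301a and Mir301b. The family was chosen by the small p-value of Mir130b when CAF+DEX was set against Control, so its values in that comparison are a description without a test. The study compared liver microRNAs of rats given caffeine, dextromethorphan, both or neither. Small RNA was sequenced from liver of male Sprague-Dawley rats (Jcl:SD), an outbred stock, that were 7 weeks old when they were assigned to groups. By mouth for 5 days the rats received caffeine at 120 mg/kg with dextromethorphan hydrobromide monohydrate at 100 mg/kg (CAF+DEX), caffeine alone at 120 mg/kg (CAF), dextromethorphan alone at 100 mg/kg (DEX) or the sterile water in which the drugs were dissolved (Control), and tissue was taken 1 h after the last dose. Each group held 5 rats, and 3 libraries per group are analysed here, 12 in all, named by the numbers in their column headers (1, 2 and 5 for CAF+DEX and for CAF, 1, 2 and 4 for DEX, and 1, 3 and 4 for Control). Which rat gave which library is not stated, so p-values measure only the spread between these libraries, which may be technical. Libraries held an estimated 2863572 to 3418568 reads on the listed features, totals recovered from the deposited values. In the 12 libraries, 6 hepatocyte microRNAs summed to between 258504 and 289131 RPM, reads per 1000000 reads on the listed features.

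A microRNA gene is transcribed as a long precursor, and a hairpin in it is cut to a duplex of about the length of the sequences printed here. The strand that is loaded into an Argonaute protein finds messenger RNAs mainly through its seed, bases 2 to 8 from the 5′ end, and lowers their translation and stability. Members of the miR-130 and miR-301 family share a seed on the 3p arm and so can bind many of the same targets. In human cells miR-130 represses PPARG, a regulator of fat storage, and miR-130b and miR-301b repress the LDL receptor and the cholesterol exporter ABCA1. In human endothelial cells miR-130a represses homeobox genes that restrain vessel growth, and in human tumour cells miR-301a represses an inhibitor of NF-kappa B. The gene annotation in the deposited table lists lipoprotein transport and lowered cholesterol efflux for both Mir130b and Mir301b.

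The mature 3p sequences are shown because they carry the family's seed. They were taken from RefSeq (build GRCr8), are printed 5′ to 3′, and have the seed in capitals. Entries were matched by name for 3 of the 4 genes. The reference used had no entry for the 3p arm of Mir301a, so its sequence is not printed and its seed was not checked here.
rno-miR-130a-3p: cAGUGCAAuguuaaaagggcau
rno-miR-130b-3p: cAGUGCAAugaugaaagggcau
rno-miR-301b-3p: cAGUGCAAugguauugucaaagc
These 3 were the only ones with this seed among 693 mature microRNA names in the RefSeq table, which lacks the 3p arm of Mir301a. Counted from 1 at the 5′ end, the first 10 bases were the same in all 3. Mir130a and Mir130b were identical at 20 of 22 positions and differed by U11A and A13G (the base of miR-130a-3p first), so that reads of the abundant and the rare paralog are told apart by 2 bases. Mir130b and Mir301b matched at 12 of 22 positions, with every difference after the shared start.

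The 5p arms of both miR-301 genes have another seed, printed in capitals to show that they share it with each other.
rno-miR-301a-5p: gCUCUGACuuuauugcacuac
rno-miR-301b-5p: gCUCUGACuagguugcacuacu
The deposited values are per gene and do not separate the arms of a hairpin.

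The hairpins of Mir301b and Mir130b are shown because the genes are neighbours on 1 strand. In the deposited table (build rn7) Mir301b (ENSRNOG00000040402) lies on the plus strand of chromosome 11 from 83879816 to 83879893, and Mir130b (ENSRNOG00000035541) from 83880163 to 83880244. There are 269 bases between them in that build and also in GRCr8, and no other feature of the table lies within 10 kb of either. The letters of the 3p seed are in capitals.
Mir301b hairpin: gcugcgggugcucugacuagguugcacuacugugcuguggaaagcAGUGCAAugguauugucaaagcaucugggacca
Mir130b hairpin: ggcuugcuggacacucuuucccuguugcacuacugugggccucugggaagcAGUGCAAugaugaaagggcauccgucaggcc
The hairpins are 78 and 82 bases long, the same lengths as the features in the deposited table. Mir130a (ENSRNOG00000035570; 88 bases) lies apart on the minus strand of chromosome 3, from 69822542 to 69822629, and Mir301a (ENSRNOG00000035586; 100 bases) on the plus strand of chromosome 10, from 71925336 to 71925435. Exon, intron and host gene positions were not analysed here.

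The 4 genes differed in level by orders of magnitude, and those on chromosome 11 were the rare ones. Levels are FPKM, fragment counts that the authors scaled to feature length and to all reads on the listed features. Comparisons between genes in FPKM therefore depend on the length of the listed feature and differ from those in reads. Over the 12 libraries Mir130a averaged 38794 FPKM, Mir301a 6542 FPKM, Mir130b 203 FPKM and Mir301b 67.4 FPKM. Without scaling to length, their means were 3414, 654, 16.7 and 5.25 RPM. By FPKM these genes ranked 39, 81, 147 and 179 among the 341 features above 0 in any library. In every library the order was Mir130a, Mir301a, Mir130b, Mir301b. Mir130a stood at 127 to 429 times the FPKM of Mir130b, at 5.33 to 6.89 times that of Mir301a, and Mir130b at 1.74 to 4.25 times that of Mir301b.

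**Figure D1:**
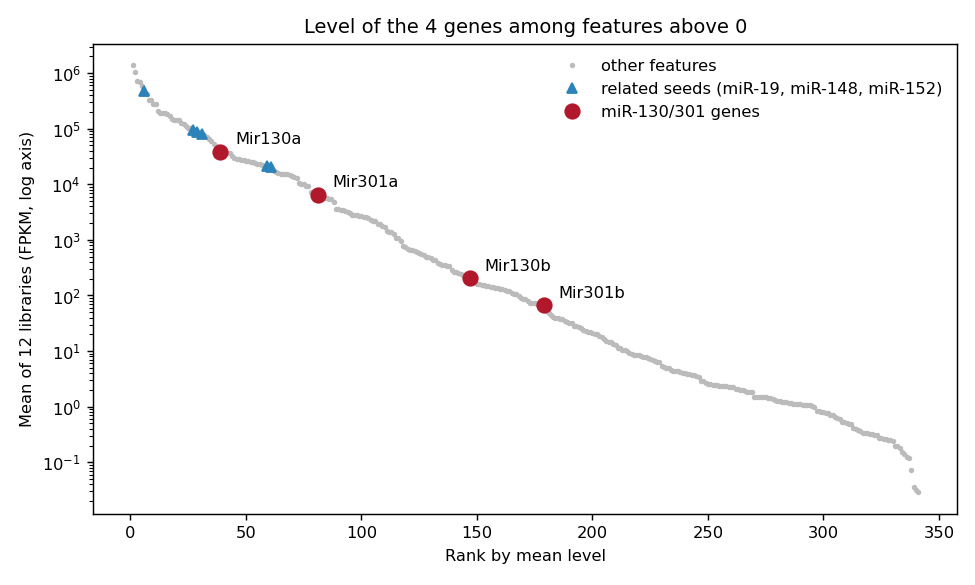
Mean level of each feature over 12 libraries (FPKM, log axis) against its rank, for the 341 features above 0; circles mark the family and triangles 6 genes with related seeds. Mir130a and Mir301a stand at ranks 39 and 81, while Mir130b and Mir301b stand at ranks 147 and 179.

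The read depth behind these levels was uneven. Mir130a had 9928 to 13035 reads per library and Mir301a 1743 to 2502 reads, whereas Mir130b had 22 to 88 reads and Mir301b 12 to 23 reads. The recovered reads are multiples of 0.01 and need not be whole. Mir130b had a whole number of reads in all 12 libraries, Mir301b in 10, Mir301a in 8 and Mir130a in 1. The handling of reads that match several places is not stated, so the level of Mir130a is less certain as that of a separate gene.

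The summed family had overlapping ranges in all groups, and Mir130a made up most of it. All 4 genes together had 3824 to 4643 RPM in CAF+DEX libraries, 3855 to 4373 in CAF libraries, 3817 to 4215 in DEX libraries and 3924 to 4192 in Control libraries. Mir130a supplied 81.8 to 85.3% of the family's reads in a library and Mir301a 14.1 to 17.4%. Mir130b supplied 0.182 to 0.614% and Mir301b 0.0958 to 0.161%. The family's total therefore says little about either gene of chromosome 11.

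Mir130b was lower in CAF+DEX and in CAF than in Control, and DEX lay between them. In CAF+DEX libraries 1, 2 and 5 it had 136, 173 and 152.4 FPKM. In CAF libraries 1, 2 and 5 it had 217, 153 and 89.3 FPKM. In DEX libraries 1, 2 and 4 it had 278, 222 and 170 FPKM, against 297, 314 and 240 FPKM in Control libraries 1, 3 and 4. No library given caffeine, alone or with dextromethorphan, reached the lowest Control library, and the DEX libraries overlapped with every other group. Mir130b was chosen through CAF+DEX against Control. Of all 293 features, 7.51% had every CAF+DEX library below every Control library, and 8.19% every CAF library below every Control library. The share with both was not counted. In bulk liver, fewer cells of a type and less RNA per cell cannot be told apart. The means were 154 ± 18.4 FPKM in CAF+DEX, 153 ± 63.9 FPKM in CAF, 223 ± 53.7 FPKM in DEX and 283 ± 38.8 FPKM in Control (SD, n = 3 each). The mean in CAF+DEX was 54.2% of that in Control, the mean in CAF 54.1% and the mean in DEX 78.9%. The order of the group means was thus Control, DEX, CAF+DEX and CAF, and CAF+DEX and CAF, next to each other in it, differed by far less than the spread within CAF.

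**Figure D2:**
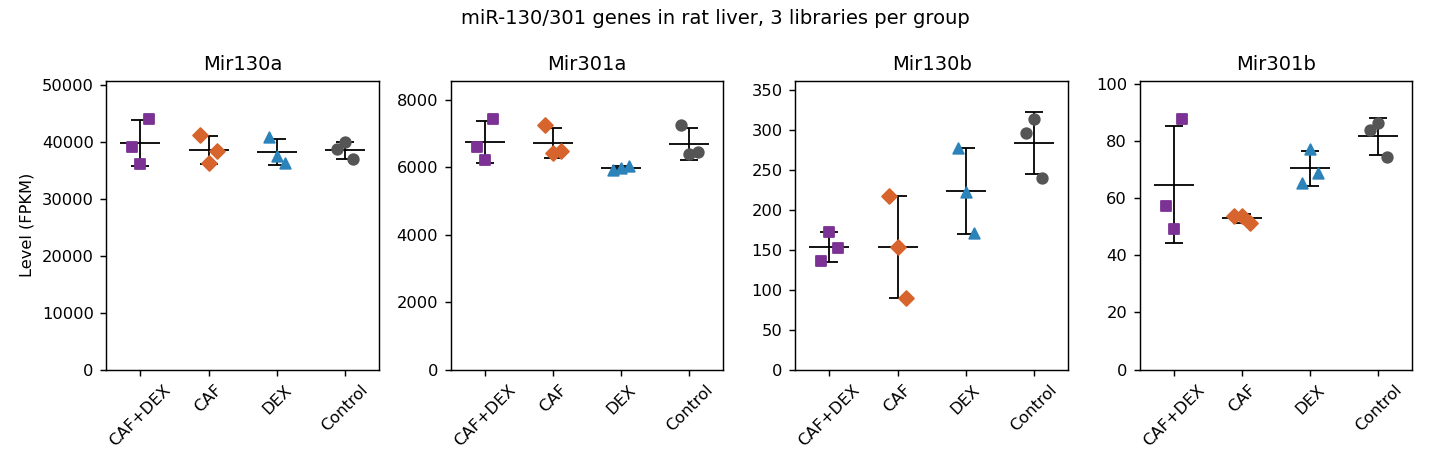
Level of each gene (FPKM, linear axis from 0) in each of 12 libraries by group; points are libraries, and bars are the mean and SD of 3 libraries. Mir130b lies at 89.3 to 217 FPKM in CAF+DEX and CAF libraries and at 240 to 314 FPKM in Control libraries, while the groups of Mir130a overlap.

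On the scale used for testing, log2(FPKM + 4.01), Mir130b had a fold change of -0.86 (SE 0.29) in CAF+DEX against Control, which ranked 6 of 293 features by p. This is the comparison that singled it out. Its neighbours in that order were Mir142 at -0.38 (SE 0.11) and Mir322-2 at 0.22 (SE 0.07) above it, and Mir190b at -0.46 (SE 0.15) and Mir802 at 0.28 (SE 0.10) below it. Those 4 averaged 547 to 36674 reads and Mir130b 52.9, so Mir130b had a larger difference on fewer reads than they did. Of all features here, 0 of 293 (0%) passed an adjusted p of 0.05, and 22 (7.51%) had all CAF+DEX libraries below all Control libraries; Mir130b is 1 of these by choice.

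The other comparisons of Mir130b mostly share libraries with the one that singled it out, and their values are given without a test. The log2 fold change was -0.95 (SE 0.29) in CAF against Control and -0.36 (SE 0.29) in DEX against Control, which use the same Control libraries. It was 0.08 (SE 0.29) in CAF+DEX against CAF and -0.51 (SE 0.29) in CAF+DEX against DEX, which use the same CAF+DEX libraries. With quantile normalization the last of these was -0.34. The difference in CAF against Control was -1.24 without CAF library 1 and -0.62 without CAF library 5. The interaction, which is how far the joint log2 difference departs from adding up the single-drug ones, was 0.44 (SE 0.41). It was 0.73 without CAF library 1, 0.11 without CAF library 5 and 0.26 without DEX library 4, and the difference in DEX against Control was -0.18 without DEX library 4.

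The difference between CAF and DEX uses none of the libraries that singled out Mir130b and is the only one tested for it, although its SE, interval and p draw on the spread within all 12 libraries. Mir130b had 89.3 to 217 FPKM in CAF and 170 to 278 FPKM in DEX, and these ranges overlap. The log2 fold change was -0.59 (SE 0.29, 95% interval -1.22 to 0.03), with an unadjusted p = 0.0621 and a Benjamini-Hochberg adjusted p = 0.414 over 293 features in limma, and did not pass. Fitted on only the 6 CAF and DEX libraries, the limma adjusted p was 0.558. The difference was -0.88 without CAF library 1 and -0.26 without CAF library 5. Across all features 1 of 293 (0.341%) passed in this comparison, Mir146a, lower in CAF.

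The spread of Mir130b was near counting error in CAF+DEX and Control and well above it in CAF and DEX. Over 3 libraries each, it summed to 123 reads in CAF+DEX, 112 in CAF, 173 in DEX and 227 in Control. In RPM this was 12.6 in CAF+DEX (95% Poisson interval 10.5 to 15.0), 12.5 in CAF (10.3 to 15.0), 18.1 in DEX (15.5 to 21.0) and 23.3 in Control (20.4 to 26.6). These intervals cover counting error only. The coefficient of variation between libraries was 12.0% in CAF+DEX, 41.7% in CAF, 24.0% in DEX and 13.7% in Control, where counting alone gives 15.6%, 16.4%, 13.2% and 11.5%. The spread was above the counting value in CAF, DEX and Control and below it in CAF+DEX.

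Mir301b, the rare neighbour of Mir130b, was also lowest in CAF, without passing the test. It had 57.1, 49.3 and 87.7 FPKM in CAF+DEX libraries 1, 2 and 5, and 53.7, 53.6 and 51.2 FPKM in CAF libraries 1, 2 and 5. It had 65.4, 77.2 and 68.6 FPKM in DEX libraries 1, 2 and 4, against 83.9, 86.3 and 74.4 FPKM in Control libraries 1, 3 and 4. Its 3 CAF libraries were below every DEX and Control library, while CAF+DEX library 5 was above every other library of the 12. The means were 64.7 ± 20.3 FPKM in CAF+DEX, 52.9 ± 1.42 FPKM in CAF, 70.4 ± 6.13 FPKM in DEX and 81.5 ± 6.30 FPKM in Control (SD, n = 3 each).

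The log2 fold change of Mir301b in CAF against Control was -0.59 (SE 0.24, 95% interval -1.11 to -0.07), with an unadjusted p = 0.0299 and a limma adjusted p = 0.361. It was -0.65 to -0.55 when each library was left out in turn. In CAF against DEX it was -0.38 (95% interval -0.90 to 0.13, limma adjusted p = 0.523), and -0.17 with quantile normalization. With both drugs against Control it was -0.35 (95% interval -0.87 to 0.17, limma adjusted p = 0.844), and it was -0.58 without CAF+DEX library 5 and -0.19 without CAF+DEX library 2. In DEX against Control it was -0.20 (95% interval -0.72 to 0.32, limma adjusted p = 0.965). None of these passed. Of all features, 24 of 293 (8.19%), Mir130b and Mir301b among them, had every CAF library under every Control library. Every CAF library lay under every DEX library in 30 of 293 (10.2%). The share with both was not counted.

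The tight grouping of Mir301b in CAF was narrower than counting error alone gives. Its sum over 3 libraries was 49.5 reads in CAF+DEX, 37 in CAF, 52.5 in DEX and 62 in Control. The coefficient of variation between libraries was 31.4% in CAF+DEX, 2.68% in CAF, 8.71% in DEX and 7.73% in Control, where counting alone gives 24.6%, 28.5%, 23.9% and 22.0%. In RPM Mir301b stood at 5.07 in CAF+DEX (95% Poisson interval 3.76 to 6.70), 4.12 in CAF (2.90 to 5.68), 5.50 in DEX (4.12 to 7.21) and 6.37 in Control (4.89 to 8.17), and all of these intervals overlap.

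**Figure D3:**
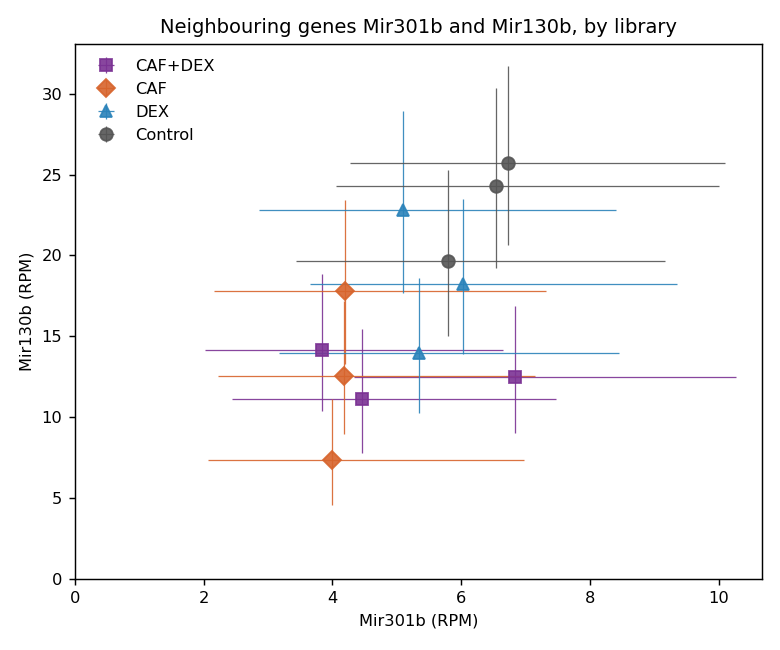
Mir130b (vertical axis) against Mir301b (horizontal axis) in RPM, 1 point per library with 95% Poisson intervals of the counts; colours and symbols give the group. CAF libraries have 7.33 to 17.8 RPM of Mir130b, CAF+DEX libraries 11.1 to 14.1, and Control libraries lie above both, with 19.7 to 25.7.

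Both genes on chromosome 11 had their highest group mean in Control and their lowest in CAF, yet they did not follow each other within groups. Pearson's r between their log2 levels over 12 libraries was 0.59 (Spearman's rho 0.48), and 0.05 once group means were taken out. With group means taken out, Mir301b had r = 0.67 with Mir130a and r = 0.70 with Mir301a. These are descriptions, the points share the group differences, and Mir301b rests on few reads. Mir130b stood at 1.74 to 3.5 times the FPKM of Mir301b in CAF+DEX, 1.74 to 4.04 times in CAF, 2.48 to 4.25 times in DEX and 3.22 to 3.64 times in Control.

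Mir130a, the abundant paralog with the same seed, differed between groups by less than its spread. It had 39094, 36183 and 44080 FPKM in CAF+DEX libraries 1, 2 and 5, and 41213, 36300 and 38324 FPKM in CAF libraries 1, 2 and 5. It had 40850, 37537 and 36291 FPKM in DEX libraries 1, 2 and 4, against 38673, 40003 and 36983 FPKM in Control libraries 1, 3 and 4. Every pair of groups overlapped. The means were 39785 ± 3994 FPKM in CAF+DEX, 38612 ± 2469 FPKM in CAF, 38226 ± 2357 FPKM in DEX and 38553 ± 1514 FPKM in Control (SD, n = 3 each). Counting alone gives a coefficient of variation of 0.936 to 0.993%, so the spread lies between libraries.

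The log2 fold change of Mir130a was 0.00 in CAF against Control (95% interval -0.17 to 0.17, limma adjusted p = 0.992). It was -0.01 in DEX against Control (95% interval -0.18 to 0.16, limma adjusted p = 1) and 0.04 in CAF+DEX against Control (95% interval -0.13 to 0.21, limma adjusted p = 0.984). None of these intervals reaches beyond 0.21 on the log2 scale in either direction. Beside these, Mir130b had -0.95 (SE 0.29), -0.36 (SE 0.29) and -0.86 (SE 0.29) in the same comparisons. The ratio of Mir130a to Mir130b in FPKM lay between 210 and 289 in CAF+DEX, 190 and 429 in CAF, 147 and 213 in DEX, and 127 and 154 in Control.

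Mir301a was lower in DEX than in every other group, without passing the test. It had 6616, 6219 and 7444 FPKM in CAF+DEX libraries 1, 2 and 5, and 7242, 6440 and 6491 FPKM in CAF libraries 1, 2 and 5. It had 5925, 5993 and 6044 FPKM in DEX libraries 1, 2 and 4, against 7255, 6389 and 6442 FPKM in Control libraries 1, 3 and 4. All DEX libraries lay below the other 9 libraries. The means were 6760 ± 625 FPKM in CAF+DEX, 6724 ± 449 FPKM in CAF, 5987 ± 59.6 FPKM in DEX and 6695 ± 485 FPKM in Control (SD, n = 3 each). The DEX mean was 89.4% of the Control mean. The coefficient of variation between DEX libraries was 0.995%, narrower than the 2.29% that counting alone gives. In CAF+DEX, CAF and Control it was 9.2%, 6.7% and 7.25%, above the 2.13 to 2.23% of counting.

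The log2 fold change of Mir301a in DEX against Control was -0.16 (95% interval -0.34 to 0.02, unadjusted p = 0.0785, limma adjusted p = 0.842). Between CAF+DEX and DEX it was 0.17 (95% interval -0.01 to 0.35, limma adjusted p = 0.575), and in CAF against DEX 0.17 (95% interval -0.01 to 0.34, limma adjusted p = 0.444). The 3 comparisons share the DEX libraries. The difference in DEX against Control was -0.10 without Control library 1 and -0.24 with median centring. Between CAF+DEX and DEX it was 0.10 without CAF+DEX library 5, and between CAF and DEX 0.26 with median centring. Of all features, 12 of 293 (4.1%) had all DEX libraries below all Control libraries. All CAF+DEX libraries lay above all DEX libraries in 14 of 293 features (4.78%), and all CAF libraries above all DEX libraries in 19 (6.48%). The share with all 3 at once was not counted. In CAF against Control and in CAF+DEX against Control, Mir301a had 0.01 (95% interval -0.17 to 0.19) and 0.01 (95% interval -0.17 to 0.19).

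**Figure D4:**
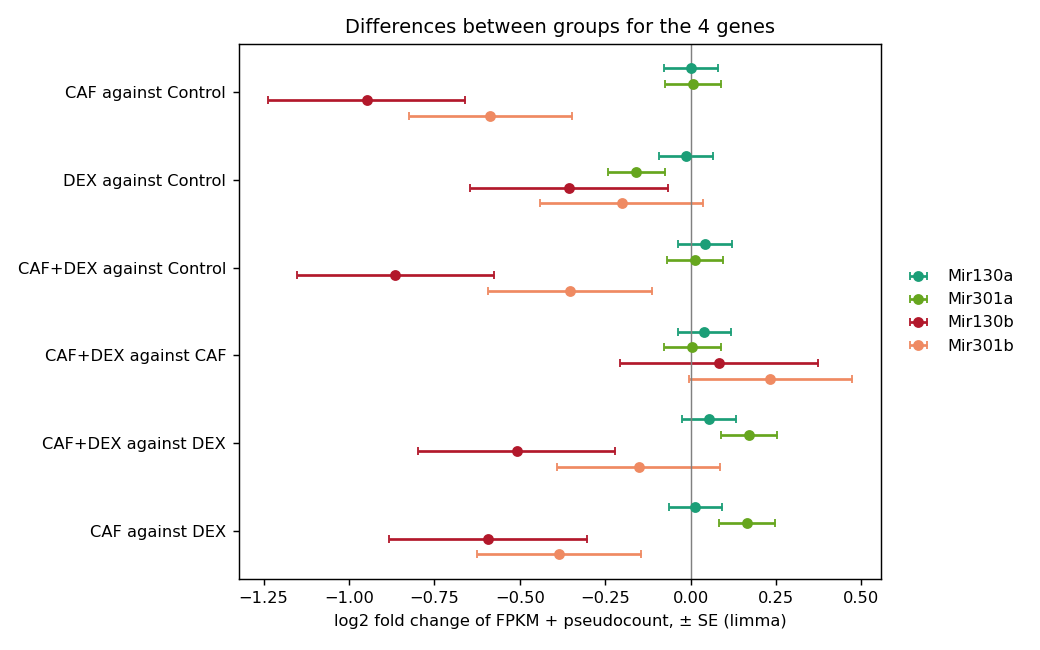
Log2 fold change of each of the 4 genes on the log2(FPKM + 4.01) scale in 6 comparisons of groups; points are limma estimates and bars are ± SE. Mir130b stands at -0.95 in CAF against Control and -0.86 in CAF+DEX against Control, while Mir130a lies between -0.01 and 0.05 in all 6.

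Counted over the family, no member passed in any comparison in which it was tested. In CAF against Control 0 of the 3 tested genes passed in limma, where 2 of all 293 features (0.683%) did, Mir142 and Mir146a, both lower in CAF; 1 of the 3, Mir301b, had an unadjusted p under 0.05, as did 38 of the 293 features (13%). In DEX against Control, CAF+DEX against Control, CAF+DEX against CAF, CAF+DEX against DEX and the interaction, 0 of the 3 passed, where 0% of all features did, and 0 had an unadjusted p under 0.05. In CAF against DEX 0 of 4 passed, where 0.341% of all features did, and 0 had an unadjusted p under 0.05, as 36 of the 293 features (12.3%) had. In the remaining contrasts the number of all features with an unadjusted p under 0.05 was 13 in DEX against Control, 30 in CAF+DEX against Control, 15 in CAF+DEX against CAF, 23 in CAF+DEX against DEX and 16 in the interaction. With limma-voom on the recovered reads 0 members passed in each comparison. The count of 2 in CAF against Control was 10 without CAF library 1, 5 without Control library 4, 4 without CAF+DEX library 1, 1 without DEX library 2, and 0 without CAF library 2, CAF library 5, Control library 1 or Control library 3. The count of 1 in CAF against DEX was 4 without CAF library 1 and 0 without CAF library 2 or 5 or DEX library 1 or 2. The interaction was 0.05 (95% interval -0.19 to 0.30) for Mir130a, 0.16 (95% interval -0.09 to 0.42) for Mir301a and 0.43 (95% interval -0.30 to 1.17) for Mir301b. Without CAF+DEX library 5 it was 0.09 for Mir301a and 0.21 for Mir301b, and without Control library 1 it was 0.11 for Mir301a. In CAF+DEX against CAF all 4 genes lay between 0.01 and 0.23, where Mir301b was 0.40 without CAF+DEX library 2 and 0.0050 without CAF+DEX library 5.

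Genes with related seeds were set beside the family, from a list of microRNAs whose seed holds 6 of the 7 letters of the family's seed, moved by 1 base. The mature sequences are shown with the seed in capitals.
rno-miR-19a-3p: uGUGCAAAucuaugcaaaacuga
rno-miR-19b-3p: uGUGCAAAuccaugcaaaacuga
rno-miR-148a-3p: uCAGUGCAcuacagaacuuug
rno-miR-148b-3p: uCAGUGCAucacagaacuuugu
rno-miR-152-3p: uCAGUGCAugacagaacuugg
Mir19a, Mir19b1 and Mir19b2 belong to clusters that promote proliferation, and miR-148a, abundant in liver, represses the LDL receptor in human cells. Mir19b1 and Mir19b2 have the same mature sequence and count as 1 signal. Mir148a also stands in the hepatocyte list. All 6 genes of the list were more abundant than Mir301a, from 20509 FPKM for Mir19a to 479602 FPKM for Mir148a. In each of the 7 contrasts 0 of the 6 passed in either direction. Between CAF and Control 1 of 6 was lower and the median difference was 0.18 (log2), where all 293 features had a median of 0.00. The counts and medians of this list take Mir19b1 and Mir19b2 separately, at 0.18 each in CAF against Control, so the list holds fewer than 6 separate signals. Mir19a had 0.21 (SE 0.09), Mir152 0.17 (SE 0.06) and Mir148a -0.09 (SE 0.08) there. The median was 0.11 in CAF+DEX against Control and 0.05 in DEX against Control.

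Leukocyte microRNAs were lower in CAF and CAF+DEX than in Control, as was Mir130b, but the 2 differed in DEX. The 6 listed (Mir142, Mir146a, Mir150, Mir155, Mir223 and Mir342) summed, in RPM, to between 19580 and 24029 in CAF+DEX, between 17456 and 21498 in CAF, between 25879 and 29663 in DEX and between 26340 and 29862 in Control. No listed gene was at 0 in any library, and the least abundant, Mir155, had at least 93 reads. Most of the sum was Mir142 and Mir146a, at means of 36674 and 30498 reads, against 5276 for Mir223, the next. The sum therefore mainly follows these 2 genes, the 2 that passed in CAF against Control. All 6 were lower in CAF against Control, of which 2 passed, and all 6 were lower in CAF+DEX against Control, of which 0 passed. In DEX against Control 5 of the 6 were lower, of which 0 passed. Of all 293 features, 49.1% were lower in CAF, 52.9% in CAF+DEX and 48.5% in DEX against Control. The mean of the sum was 27426 RPM in DEX and 27585 RPM in Control, whereas the DEX mean of Mir130b was 78.9% of its Control mean. Within CAF, library 1 had the highest and library 5 the lowest level of both Mir130b and the leukocyte sum. Within CAF+DEX, library 2 was highest and library 1 lowest for both, and within Control library 3 was highest and library 4 lowest. In DEX library 1 was highest for Mir130b and library 2 for the sum. The part of these cells in the level of Mir130b was not tested. The 3 erythroid microRNAs summed to between 847 and 940 RPM in CAF+DEX, 602 and 1143 in CAF, 906 and 1222 in DEX, and 1008 and 1215 in Control. All 3 were also lower in CAF and in CAF+DEX against Control, of which 0 passed. In DEX against Control 2 of the 3 were lower, of which 0 passed. Within CAF and within CAF+DEX the erythroid sum had the same highest and lowest libraries as Mir130b. Within Control its highest was library 1 and its lowest library 4, and within DEX library 2 and library 1. The 6 hepatocyte microRNAs summed to between 258504 and 285952 in CAF+DEX, 270928 and 284883 in CAF, 260147 and 269808 in DEX, and 270828 and 289131 in Control. The DEX range lay below those of CAF and Control and overlapped with that of CAF+DEX, which was not tested. Mir192 was the largest part of this sum, at a mean of 481086 reads. Listed markers of stellate and smooth muscle cells (3 of 4 listed had a row) and of biliary epithelium (3 of 5) overlapped between all groups, and the single endothelial marker, Mir126a, averaged 15.2 reads.

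**Figure D5:**
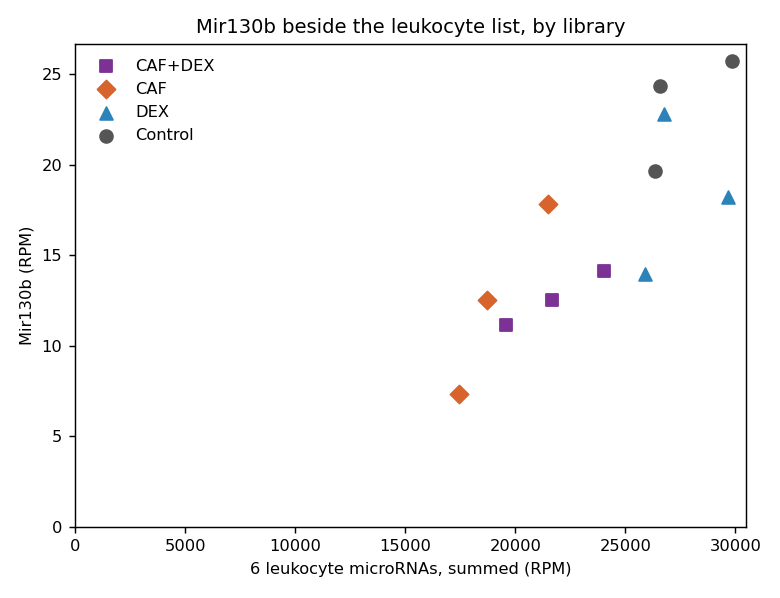
Mir130b in RPM against the sum of 6 leukocyte microRNAs in RPM (mostly Mir142 and Mir146a), 1 point per library, coloured by group. The 6 libraries with caffeine lie at the left, at no more than 24029 RPM in sum, and the 6 without it at 25879 or more.

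The features whose pattern over the 12 libraries was most like that of Mir130b were sought among 173 others averaging at least 20 reads, by Pearson's r of log2 levels, as a description. Mir142, a microRNA of blood cell lineages and the largest part of the leukocyte sum, came first with r = 0.85 (Spearman's rho 0.85). Within groups Mir142 had r = 0.66. Its mean was 94348 ± 10152 FPKM in CAF+DEX, 81647 ± 11416 FPKM in CAF, 116761 ± 15840 FPKM in DEX and 122740 ± 5601 FPKM in Control (SD, n = 3 each). Mir103a2 and Mir103a1, copies of a microRNA that lowers insulin sensitivity in mouse liver, followed with r = 0.80 each and r = 0.78 and 0.77 within groups. They count as 1 signal. Mir181b1, a microRNA known from lymphocytes, was the most opposite with r = -0.81, at a mean of 31.5 reads. All points share the library totals, and the features were picked as the extremes of 173. The 12 libraries include the CAF+DEX and Control libraries by whose difference Mir130b was chosen. Mir142 ranked 4 by p in that comparison, so its likeness over 12 libraries follows in part from the choice. Against its own family, Mir130b had r = 0.13 with Mir130a, r = -0.05 with Mir301a and r = 0.59 with Mir301b. Within groups these were 0.38, 0.26 and 0.05. Mir130a and Mir301a had r = 0.58 with each other, and 0.67 within groups.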

How the data were processed

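Values are the authors' FPKM for 444 features in 12 libraries. The submitters' processing notes list cutadapt 3.7, STAR 2.7.11b, Subread 2.0.6 with its featureCounts program, and the rn7 build; parameters, the collapse of molecular indices and the treatment of reads with several matches are not given in the sources used here. In each library the deposited FPKM times length in kilobases summed to 1000000. Library totals were recovered as the totals at which all values become multiples of 0.01 read (50.5 to 58.3% of values above 0 were whole). They are estimates, used for Poisson intervals and for limma-voom as an alternative, and no count model was the main test. No pair of libraries within a group looked like 1 library deposited again: over 135 features their chi-square was 51.4 to 266 times its degrees of freedom.

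The 293 features above 0 in at least 3 of 12 libraries were fitted together with limma-trend (limma 3.58.1, R 4.3.3) on log2(FPKM + 4.01), with the 10th percentile of values above 0 among them as pseudocount and 4 group means. Fold changes on this scale understate changes of rare features. Adjusted p-values are Benjamini-Hochberg over 293 features at a threshold of 0.05. Alternatives changed the pseudocount, the filter, the scaling (quantile normalization, median centring), the libraries fitted, the weights (limma-voom) and the replicate block, or left out each library in turn.

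All family genes are named, with the related-seed list, the 3 features most like Mir130b and the 1 most opposite, its 2 neighbours on each side by p, and features within 10 kb. Members and lists were chosen with earlier results of these data known. Column headers give a library's group, not its sample title.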

Additional observations from a re-analysis of the deposited data

How the results depend on the processing

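Among the 4 genes, 0 of those tested passed in any of the 7 contrasts under every alternative run. Mir130b moved by less than 0.38, its pooled SD on the log2 scale, in each; apart from left-out libraries it ranged from -0.97 to -0.75 in CAF against Control and from -0.88 to -0.63 in CAF+DEX against Control. The counts over all features moved more. In CAF against Control 2 became 4 with quantile normalization, 0 with only the 6 libraries compared and 0 with the replicate block, and 0 to 10 when 1 library was left out. In DEX against Control 0 became 1 with the replicate block and 0 to 1 with a library left out (Control 3). In CAF+DEX against Control 0 became 2 with no filter, 2 with the stricter filter of 10 reads and 1 with quantile normalization. In CAF+DEX against DEX 0 became 1 with quantile normalization and 0 to 1 with a library left out (DEX 4 or Control 3). In CAF against DEX 1 became 0 with no filter or the replicate block and 0 to 4 with a library left out. The interaction went from 0 to 1 without DEX library 4. The cause was not tested.

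Fold changes of the 3 paralogs of Mir130b changed sign 30 times, none of them passing. In the main fit these were near 0, except for Mir301b in CAF+DEX against DEX, at -0.15. Mir130b changed sign only in CAF+DEX against CAF, to -0.25 without CAF library 5 and -0.0017 without CAF+DEX library 2. For Mir130a the values with the other sign were -0.0090 with quantile normalization in CAF against Control, and with the replicate block -0.0072 in CAF against Control, 0.035 in DEX against Control, -0.0022 in CAF+DEX against DEX and -0.043 in CAF against DEX. For Mir301a they were -0.047 and -0.041 with the replicate block in CAF and in CAF+DEX against Control, and -0.012 with median centring in CAF+DEX against CAF. For Mir301b it was 0.013 with quantile normalization in CAF+DEX against DEX. With each library left out, Mir130a ranged from -0.047 to 0.045 (CAF against Control), -0.062 to 0.023 (DEX against Control), -0.035 to 0.11 (CAF+DEX against Control), -0.036 to 0.11 (CAF+DEX against CAF), -0.022 to 0.12 (CAF+DEX against DEX), -0.034 to 0.063 (CAF against DEX) and -0.023 to 0.12 (interaction). Mir301a ranged from -0.048 to 0.066 (CAF against Control), -0.059 to 0.071 (CAF+DEX against Control) and -0.066 to 0.064 (CAF+DEX against CAF), and Mir301b from -0.38 to 0.012 (CAF+DEX against DEX). The replicate block used the numbers of the column headers, which are only names: same-numbered libraries had correlations of -0.34 to 0.41 over 11 pairs. Counts of 12 to 23 reads limit what can be said of Mir301b.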
